A study of Mus musculus with 2 samples.

Results

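Mrgprb1-positive mast cells were chosen by their own UMIs from cells sorted from mouse fetal lungs at gestation day 18. A UMI (unique molecular identifier) stands for 1 captured RNA molecule. A barcode was kept with at least 200 genes, at most 5% mitochondrial UMIs and 1 clear hashtag (at least 10 UMIs of the top tag and 3 times the next). It was a mast cell with at least 3 Cma1 and 5 Hdc UMIs, and a member with at least 1 Mrgprb1 UMI. This gave 185 members among 2904 mast cells (6.37%, 95% Wilson interval 5.54 to 7.32%) and 8598 singlets, and 2719 mast cells had no Mrgprb1 UMI. Because the cells were selected on Mrgprb1, Cma1 and Hdc, every difference from mast cells with no Mrgprb1 UMI is given as a description with no test. The same selection was made in every litter without use of the treatment, and DEX and PBS litters were compared by test. For Mrgprb1, Cma1 and Hdc, whose levels the selection shaped, values are given with no test. They were not taken out of the counts of genes tested.

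C57BL/6J mothers, 9 weeks old and wild type, drank water containing dexamethasone (DEX, a synthetic glucocorticoid, 1.3 µg/ml, dissolved in phosphate-buffered saline) or PBS alone from gestation day 12. Lungs were pooled within a litter, with 8 and 9 fetuses in litters DEX-1 and DEX-2 and 5 and 8 in litters PBS-1 and PBS-2 (values are given in this order throughout). Each litter carried its own hashtag antibody. The study used mice of both sexes and does not give the sex of the pooled fetuses. Live CD45-positive cells with ST2, the IL-33 receptor, and without a set of lineage markers that included CD3e, CD4, CD8A, CD11b, CD11c and TER119 were sorted, a gate set for type 2 innate lymphoid cells (ILC2s). The labels, methods and hashtags give 2 mothers per group, whereas 1 legend in the study names fewer mothers. The comparison of DEX with PBS asks whether maternal glucocorticoid exposure alters these cells in the fetal lung.

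Mast cells store histamine, heparin and serine proteases in granules and release them when IgE receptors or other surface receptors are engaged. In mice, connective tissue mast cells are known for the chymase Mcpt4, for Cma1, tryptase Tpsb2 and carboxypeptidase Cpa3, and for receptors of the Mas-related G protein-coupled (Mrgpr) family, which respond to cationic peptides and drugs without IgE. Mucosal mast cells are known instead for Mcpt1 and Mcpt2, and mast cell progenitors carry integrins such as Itga4 and Itgb7.

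The 3 family members measured in these cells lie side by side on the minus strand of chromosome 7 in GRCm38, with Mrgprb1 at 48444113 to 48456342, Mrgprx2 at 48478619 to 48499321 and Mrgprb2 at 48550965 to 48558086. The bases before their transcription starts are shown because the 3 genes were found together in the same cells. Each run is from RefSeq (GRCm38.p6), 5′ to 3′ on the gene's strand, with the letters TGACTCA in capitals, and covers chr7:48456343-48456592, chr7:48499322-48499520 and chr7:48558087-48558336.
Mrgprb1: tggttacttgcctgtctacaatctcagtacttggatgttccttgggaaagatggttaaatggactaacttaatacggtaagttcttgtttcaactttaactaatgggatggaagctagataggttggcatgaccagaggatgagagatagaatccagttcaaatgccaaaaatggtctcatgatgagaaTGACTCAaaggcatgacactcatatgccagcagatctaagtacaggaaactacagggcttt
Mrgprx2: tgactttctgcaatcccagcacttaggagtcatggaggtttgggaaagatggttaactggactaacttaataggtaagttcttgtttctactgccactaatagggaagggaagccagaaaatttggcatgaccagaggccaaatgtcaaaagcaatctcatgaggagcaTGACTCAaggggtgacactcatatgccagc
Mrgprb2: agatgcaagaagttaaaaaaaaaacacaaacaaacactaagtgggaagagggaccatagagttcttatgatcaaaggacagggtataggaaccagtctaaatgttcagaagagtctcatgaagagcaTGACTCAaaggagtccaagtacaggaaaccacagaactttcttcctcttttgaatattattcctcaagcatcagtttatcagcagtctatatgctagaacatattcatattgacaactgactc

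The letters TGACTCA, the core of an AP-1 motif, began 61 bases before the RefSeq start of Mrgprb1, 81 before that of Mrgprx2 and 123 before that of Mrgprb2, each on the gene's own strand. They lie in the longest run shared by all 3 stretches, atgactcaa, and the motif was searched for after this run was seen. TGACTCA on either strand was found in the 250 bases before the start of 4.46% of 32851 RefSeq promoters. The GATA motif AGATAA (9.99% of promoters) was in none of the 3 printed stretches, and the core AGAACA of a glucocorticoid receptor motif (16.1%) was in that of Mrgprb2, 28 bases before its start. These matches describe letters and not binding, and the stretch of Mrgprx2 has 199 bases because GENCODE starts that gene further upstream.

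The UMIs of the members were summed per litter, and levels are given as counts-per-million of all UMIs (CPM). Members numbered 39 and 52 in the DEX litters and 44 and 50 in the PBS litters, with 355740, 469956, 380462 and 471020 UMIs, so that 3 UMIs correspond to between 6.37 and 8.43 CPM. The median member held 8185 UMIs and the median mast cell with no Mrgprb1 UMI 7492. A single matrix was deposited, which held the gene expression and hashtag libraries of the same barcodes. Of the members, 4 held 100 or more UMIs of the alveolar gene Sftpc (1 in DEX-1 and 3 in PBS-2), and with them the summed epithelial markers, all 13 detected, were 31458 and 357 CPM in the DEX litters and 628 and 10560 CPM in the PBS litters. Without these 4 cells the sum lay between 272 and 628 CPM. Whether they are doublets within a litter was not tested, and no caller of doublets was run beyond the hashtags.

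Markers of connective tissue mast cells were present in the members of every litter (the plot of levels by litter). Mrgprb2, the receptor that triggers mast cells in response to cationic drugs, was 506 and 464 CPM in the DEX litters and 549 and 425 CPM in the PBS litters, and between 28.0 and 51.5 CPM in mast cells with no Mrgprb1 UMI. Mrgprx2 was 171, 117, 147 and 113 CPM in the same order, against 2.87 to 6.61 CPM. In both genes the lowest member litter lay far above the highest litter of the other mast cells. How the counting treated reads of near-identical family copies was not tested, so the levels of Mrgpr genes and of chymases are uncertain. Of the other 17 genes of the family list, Mrgpra4, Mrgprb8 and Mrgpre had 6, 7 and 8 UMIs in the members and 14 had none.

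Mcpt4, a chymase of connective tissue mast cells (chromosome 14, 56059629 to 56062313), was 9279 and 13112 CPM in the DEX litters and 8101 and 11902 CPM in the PBS litters in the members, against 963 to 1534 CPM in the other mast cells. The log2 ratio was 3.07 ± 0.02 (SD, n = 4 litters), so the ratio hardly varied between litters although the level did. It varied more with the choice of cells, from 2.94 without cycling cells to 3.58 with Mrgprb1 read after thinning. Fcer1a, the IgE-binding chain of the high-affinity receptor, was 379 and 277 CPM in the DEX litters and 455 and 208 CPM in the PBS litters, against 31.1 to 56.4 CPM. Smaller ratios were found for the other chains. Fcer1g, the signalling chain, differed by 0.60 ± 0.10 on the log2 scale and Ms4a2, the beta chain, by 0.19 ± 0.56. Kit, the stem cell factor receptor, was 1168 ± 111 CPM against 1000 ± 107 CPM (mean ± SD, n = 4 litters), and Il1rl1, which encodes the sorted ST2, was 741 ± 100 against 471 ± 50.6 CPM.

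**Figure D1:**
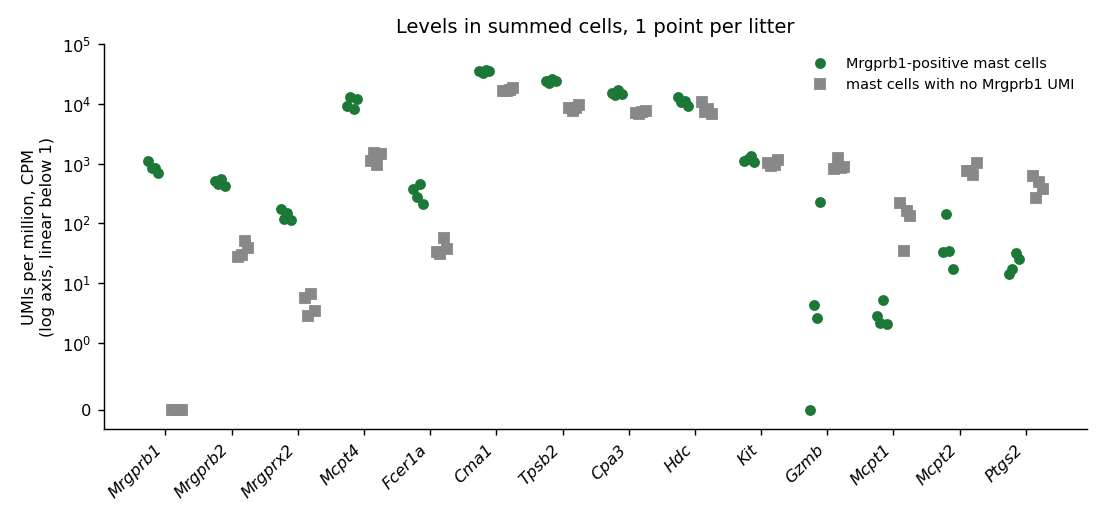
Levels of 14 genes in summed cells of each litter, in CPM on a log axis that is linear below 1, for Mrgprb1-positive mast cells (circles) and mast cells with no Mrgprb1 UMI (squares). Mrgprb2, Mrgprx2, Mcpt4 and Fcer1a sit above the squares in all 4 litters, and Gzmb, Mcpt1, Mcpt2 and Ptgs2 sit below them.

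Mrgprb1 itself, which chose the cells, was 1088 and 836 CPM in the DEX litters and 836 and 690 CPM in the PBS litters. Its UMIs per cell ran from 1 to 36 with a median of 5. Just inside the threshold, 35 members had 1 Mrgprb1 UMI, with a median of 3815 total UMIs, and 57.1% of them held an Mrgprb2 UMI, 20.0% an Mrgprx2 UMI and 51.4% an Mcpt4 UMI. Just outside it, in mast cells with none, those shares were 14.7%, 2.91% and 40.6%. In the 49 members with 10 or more Mrgprb1 UMIs, at a median of 9862 total UMIs, they were 98.0%, 79.6% and 73.5%. Depth thus differed along with the Mrgprb1 count, and its part in these shares was not tested; after thinning to 5000 UMIs, 83.3% of 138 deep members held an Mrgprb2 UMI and 45.7% an Mrgprx2 UMI.

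The receptors overlapped within cells. Among the 185 members, 89 held UMIs of all 3 receptors, 66 of Mrgprb1 and Mrgprb2, 10 of Mrgprb1 and Mrgprx2, and 20 of Mrgprb1 alone, and the last had a median of 2980 UMIs. Outside the mast cell rule 4 of 5694 singlets held 1 Mrgprb1 UMI each. Of 377 singlets with basophil genes 0 held any, and a count of 0 (taken as under 3 cells) allows a share of cells with a UMI of up to 0.796%. Of 217 B cell-like barcodes (at least 2 Cd79a and 1 Cd79b UMIs, and Cma1 under 3), which should lack these genes, none had Mrgprb1, Mrgprb2 or Mrgprx2 at a median of 3566 UMIs. Sftpc, a gene of alveolar epithelium, was found in 73.5% of members and 76.0% of those barcodes.

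Members were not alike in Mcpt4 (the plot of UMIs per cell). The gene had a median of 3 UMIs per member but an upper quartile of 84 and a maximum of 993, and 68 members had none. Split at 3 UMIs, a limit set after the values were seen, 93 members were Mcpt4-high (22, 23, 20 and 28 in DEX-1, DEX-2, PBS-1 and PBS-2) and 92 Mcpt4-low (17, 29, 24 and 22), at medians of 8899 and 7693 UMIs. The other granule genes did not part in the same way: Cma1 was 36454 ± 2921 CPM in Mcpt4-high and 34408 ± 5440 CPM in Mcpt4-low members, and Tpsb2 was 24868 ± 4002 and 23740 ± 5342 CPM (SD, n = 4 litters). Mrgprb1, at 952 ± 126 and 799 ± 329 CPM, and Mrgprb2, at 526 ± 78.4 and 451 ± 66.8 CPM, were close to each other in the 2 sets. Pilra, an inhibitory receptor, followed Mcpt4 at 117 ± 41.3 against 14.3 ± 10.9 CPM, and so did Slc29a1, a nucleoside transporter, at a log2 ratio of 1.87 (1.31 to 2.25 over litters). H19 and Igf2, imprinted genes of fetal growth, lay the other way, with log2 ratios of -2.68 (-5.92 to -0.80 over litters) and -2.16 (-3.65 to -1.11).

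**Figure D2:**
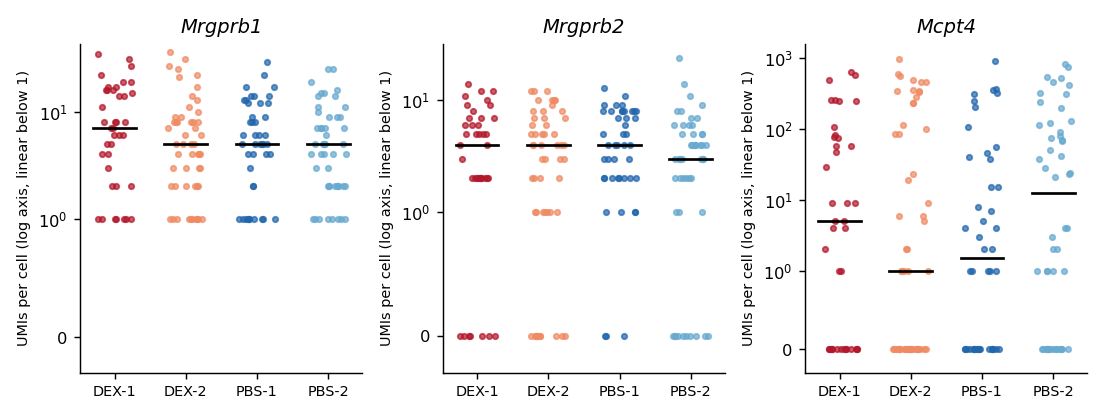
UMIs per cell of Mrgprb1, Mrgprb2 and Mcpt4 in each of the 185 members, by litter, on a log axis that is linear below 1, with the median of each litter as a bar. Mrgprb1 starts at 1 by selection, and Mcpt4 spreads from 0 to a highest cell of 634 and 993 UMIs in the DEX litters and 916 and 833 UMIs in the PBS litters.

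Across genes with at least 50 CPM on average in either set of mast cells, a difference was counted as large and repeated when the log2 ratio, with 0.5 CPM added, was 0.5 or more in the same direction in all 4 litters. This held for 134 of 3153 genes that were higher in members (4.25%) and for 140 that were lower (4.44%), and the median log2 ratio of all these genes was -0.12. The cells were selected on 3 of these genes, so the counts describe the contrast and support nothing further. The numbers by gene group below are read beside these shares.

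Of 17 granule protease genes measured, 7 were higher and 5 lower in members, with a median log2 ratio of 0.45. Cma1, which chose the cells, is among the 7 higher. Tpsb2, a tryptase, was 24136 and 22179 CPM in the DEX litters and 26223 and 23732 CPM in the PBS litters, against 7666 to 9376 CPM, and Cpa3, the carboxypeptidase of mast cell granules, was 15177 ± 1167 against 7183 ± 339 CPM (SD, n = 4 litters). Plau, urokinase, was 36.5, 70.2, 86.7 and 53.1 CPM against 9.06 to 13.6 CPM. In each of these genes every member litter lay above every litter of the other mast cells. Prss34, a protease shared with basophils, was also higher, at 945 ± 448 against 370 ± 54.6 CPM, with a wide spread that is taken up again with the litters.

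The 5 proteases that were lower in members were Mcpt1, Mcpt2, Gzmb, Mcpt8 and Ctsg. Mcpt1 had 5 UMIs in all members and was 3.08 ± 1.49 CPM against 136 ± 76.1 CPM, which places it at or under the level of 3 UMIs in each litter. Mcpt2, its neighbour among mucosal chymases, was 33.7 and 143 CPM in the DEX litters and 34.2 and 17.0 CPM in the PBS litters, against 641 to 1034 CPM. Gzmb, granzyme B, was listed at 0 and 4.26 CPM in the DEX litters and 2.63 and 231 CPM in the PBS litters, and between 828 and 1265 CPM in the other mast cells. In PBS-2, 107 of the 109 Gzmb UMIs of members came from 1 cell. Mcpt8, a basophil protease, was 14.2 ± 10.4 CPM against 102 ± 11.0 CPM. Ctsg, cathepsin G, a protease of neutrophils and of connective tissue mast cells, was 24.4 ± 6.29 against 74.5 ± 25.1 CPM.

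Genes of amines and heparin followed the proteases only in part: 3 of 14 were higher, 0 lower, and the median log2 ratio was 0.35. Slc6a4, the serotonin transporter, was 1352 and 1015 CPM in the DEX litters and 1141 and 947 CPM in the PBS litters, against 298 to 410 CPM. Maob, which degrades amines, was 195 ± 15.2 against 83.1 ± 11.1 CPM, and Srgn, the core protein that carries heparin, was 9134 ± 442 against 5979 ± 261 CPM. Tph1, which starts serotonin synthesis, differed by only -0.09 ± 0.24 on the log2 scale.

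Several receptors outside the Mrgpr family were among the genes with the largest ratios. Pilra was 107 and 83.0 CPM in the DEX litters and 44.7 and 42.5 CPM in the PBS litters, against 1.65 to 3.87 CPM, and Pilrb2, a paired activating relative, was 84.3, 85.1, 57.8 and 72.2 CPM, against 3.92 to 8.87 CPM. Gpr141b, a G protein-coupled receptor, was 228, 166, 171 and 170 CPM, against 12.3 to 15.1 CPM. Ratios were smaller for 2 other receptors. Adora3, the adenosine A3 receptor, was 408 ± 61.3 against 179 ± 15.2 CPM. Cd200r3, an activating receptor of mast cells and basophils, was 518 ± 35.4 against 287 ± 26.4 CPM. In the list of G protein-coupled and innate receptors 1 of 7 genes, Adora3, was higher and 0 lower. In the list of inhibitory receptors, which holds Pilra and Cd200r3, 3 of 8 were higher and 0 lower. Of 14 cytokine receptor genes 0 were large and repeated in either direction.

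Among cytokines and chemokines, 3 of 13 were higher and 3 lower. Tnf was 408 and 777 CPM in the DEX litters and 920 and 437 CPM in the PBS litters, against 107 to 171 CPM, and 71.4% of members held a Tnf UMI against 42.2% of the other mast cells. Ccl1, a chemokine for CCR8-bearing cells, was 238 ± 162 against 65.7 ± 11.8 CPM and Csf1, which supports macrophages, 149 ± 38.4 against 62.3 ± 11.8 CPM. Ccl4, Osm and Vegfa were lower, with log2 ratios of -3.07 ± 0.74, -1.47 ± 0.72 and -1.60 ± 0.78. Of 22 immediate early genes 5 were higher and 0 lower, among them Fosb, an AP-1 subunit, at 396 ± 37.6 against 203 ± 40.7 CPM, and Egr2 at 158 ± 96.4 against 31.8 ± 5.61 CPM.

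Genes of lipid mediators were lower in 4 of 9 cases and higher in 0. Ptgs2, the inducible cyclooxygenase, was 14.1 and 17.0 CPM in the DEX litters and 31.5 and 25.5 CPM in the PBS litters, against 267 to 618 CPM. Alox5ap, which serves leukotriene synthesis, was 896 ± 187 against 2005 ± 177 CPM, and Hpgds, which makes prostaglandin D2, differed by 0.39 ± 0.17 on the log2 scale. The integrins of progenitor homing were lower too: Itga4 was 46.1 ± 24.8 against 174 ± 22.5 CPM and Itgb7 was 145 ± 26.1 CPM against 274 ± 18.0 CPM. Of 16 lineage factors 2 were higher (Meis2 and Tal1) and 3 lower (Cebpb, Lmo4 and Runx1). Mitf and Gata2, regulators of mast cell identity, were 124 ± 22.8 against 134 ± 29.6 CPM and 839 ± 92.6 against 843 ± 120 CPM. The log2 ratios of Meis2 and Tal1 were 1.03 ± 0.29 and 0.87 ± 0.11, and those of Cebpb, Lmo4 and Runx1 were -1.07 ± 0.13, -1.44 ± 0.77 and -1.12 ± 0.24.

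**Figure D3:**
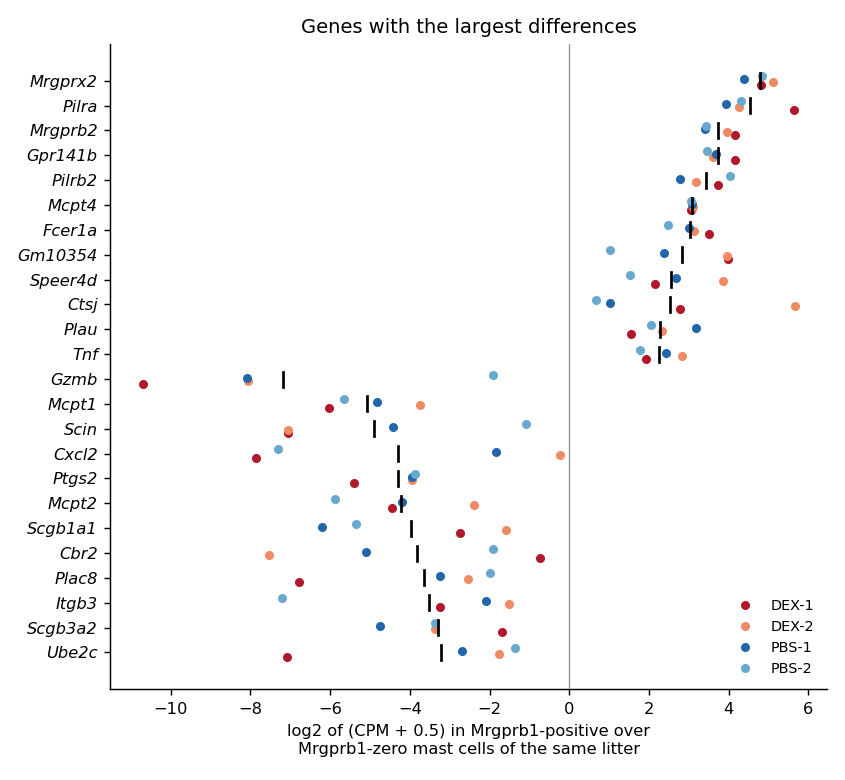
Log2 ratio of CPM, with 0.5 added, in Mrgprb1-positive over Mrgprb1-zero mast cells of the same litter, for the 12 genes with the largest mean ratio in each direction (points are litters, bars their mean). Mcpt4 varies least of the 24 genes, with an SD of 0.02, and Cxcl2 and Gzmb vary most, Gzmb from -10.69 in DEX-1 to -1.92 in PBS-2.

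The remaining genes with the largest ratios included some whose level rested on single litters or cells. Ctsj, a cathepsin, was 157 and 417 CPM in the DEX litters and 78.9 and 10.6 CPM in the PBS litters, and 173 of the 196 UMIs in DEX-2 came from 1 cell. Gm10354 and Speer4d had log2 ratios of 2.84 ± 1.43 and 2.56 ± 0.99. Scin, Plac8, Itgb3 and Cxcl2 had log2 ratios of -4.90 ± 2.83, -3.64 ± 2.16, -3.52 ± 2.56 and -4.31 ± 3.84. Members were at 0 in 2 litters for Scin, 1 for Itgb3 and 2 for Cxcl2, where the ratio depends on the 0.5 CPM added, and in 0 for Plac8. Cxcl2 was not large and repeated, since in DEX-2 it was 44.7 against 52.5 CPM. Scgb1a1, Scgb3a2 and Cbr2, genes of airway club cells, were lower as well; when each member was set against mast cells of like total UMIs, Scgb1a1 went from -3.97 to -0.99 and Scgb3a2 from -3.29 to -1.01.

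Mast cells with an Mrgprb2 UMI but none of Mrgprb1 numbered 400, at a median of 4928.5 UMIs. Their Cma1 level of 31384 ± 4988 CPM was close to that of members, Tpsb2 was 17936 ± 3814 CPM and Gzmb 23.9 ± 40.3 CPM. Their Mcpt4, at 1632 ± 624 CPM, was near the 1227 ± 262 CPM of mast cells with neither receptor and far from the 10598 ± 2309 CPM of members (SD, n = 4 litters). Pilra, at 10.8 ± 10.2 CPM, and Slc6a4, at 658 ± 135 CPM, lay between the members and mast cells with neither receptor. Since these cells were also chosen by UMIs, no test was made.

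Markers of other cells were found in members to differing degrees. The 14 basophil markers, of which 0 were at 0, summed to between 16825 and 20796 CPM in members and between 9436 and 10722 CPM in the other mast cells, and the list holds Cpa3 and Gata2, which mast cells also express. The endothelial markers, left after the Sftpc-rich cells were removed, summed to 23.5 and 283 CPM in the DEX litters and 23.7 and 436 CPM in the PBS litters of members, against 109.7 to 292 CPM in the other mast cells with no cell removed. The part of these genes in the results was not tested. Of the neutrophil markers 7 of 11 were at 0, among them S100a8 and S100a9, and of the B cell markers 7 of 10, Cd79a included. Of 14 ILC2 markers Arg1 and Il5 were at 0, and the summed level of the list was between 425 and 1630 CPM in members and between 690 and 1275 CPM in the other mast cells, highest in DEX-1 in both. A Gata3 UMI was found in 3 of 185 members (1.62%) and in 2.61% of the other mast cells.

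The Mrgprb1-positive share of mast cells was 5.83% in DEX-1 (39 of 669 cells, 95% Wilson interval 4.29 to 7.87%), 6.49% in DEX-2 (52 of 801, 4.98 to 8.41%), 6.91% in PBS-1 (44 of 637, 5.19 to 9.15%) and 6.27% in PBS-2 (50 of 797, 4.79 to 8.18%). As counted, the litters of the groups interleaved, and the intervals, which cover counting error only, all overlapped. DEX minus PBS was -0.43 percentage points, with a two-sided exact permutation p of 0.667, where 2 litters per group cannot give less than 0.333. With Mrgprb1 read after thinning, both DEX litters (5.98 and 5.88%) lay below both PBS litters (8.41 and 6.52%). That difference was -1.53 points (exact permutation p = 0.333). At least 2 Mrgprb1 UMIs per member also parted the groups, at 4.83 and 5.31% against 5.42 and 5.32% (-0.30 points, exact permutation p = 0.333). Under the other choices of cells in which this share was compared, the litters interleaved. These are shares among sorted cells and not of whole lungs.

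Cycling cells were counted among members with at least 5000 UMIs, thinned to that depth, as those with 2 or more UMIs over 10 proliferation genes. They were 0 of 27 in DEX-1, with a 95% Wilson interval up to 12.5%, and 10.3% in DEX-2 (4 of 39), 5.41% in PBS-1 (2 of 37) and 5.71% in PBS-2 (2 of 35), with 12, 13, 7 and 15 shallower members left out. DEX minus PBS was -0.43 percentage points (exact permutation p = 1), and 1 litter set the sign, since the difference was 4.70 points without DEX-1 and -5.56 without DEX-2. In the other mast cells the shares were 7.60%, 14.9%, 12.3% and 10.8%. Without thinning the member shares were 0%, 7.69%, 6.82% and 6%.

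**Figure D4:**
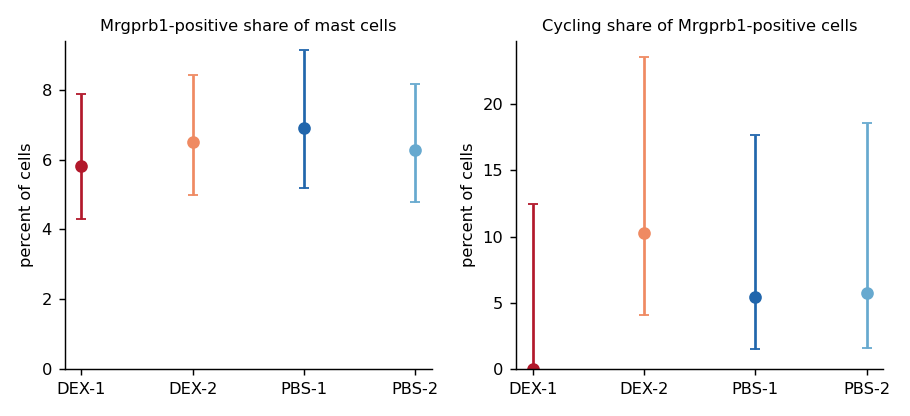
Left, the percentage of mast cells with an Mrgprb1 UMI in each litter. Right, the percentage of members counted as cycling after thinning; bars are 95% Wilson intervals. DEX and PBS litters overlap in both panels, between 5.83 and 6.91% on the left and between 0 and 10.3% on the right.

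DEX and PBS litters were then compared gene by gene in the summed members. By edgeR's quasi-likelihood test with Benjamini-Hochberg adjustment, 0 of 5143 genes had an adjusted p under 0.05 (0%), and 222 (4.32%) had an unadjusted p under 0.05, 109 of them higher and 113 lower in DEX. DESeq2 called 2 genes on the same sums, Csf2 and Prss34, and limma-voom called 0. In mast cells with no Mrgprb1 UMI edgeR also called 0, of 12134 genes (0%), with 576 (4.75%) at an unadjusted p under 0.05. The difference of the DEX effect between the 2 sets of mast cells was called for 0 of 11256 genes (0%), with 400 (3.55%) at an unadjusted p under 0.05, so no DEX difference is given as particular to members. The values that follow are from genes of the lists and did not pass by edgeR.

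Of the 16 granule proteases tested, 2 were higher (Mcpt2 and Tpsg1) and 2 lower (Ctsl and Prss34) in DEX at an unadjusted p under 0.05, beside 4.32% of all genes. Without overlap of the litters 4 lay above and 5 below, beside 15.1% and 18.9%, and 0 passed the adjustment. Cma1, whose level the selection shaped, is counted among the 16 and among the 5 below. Mcpt2, the mucosal chymase, differed by 1.86 ± 0.66 on the log2 scale, with 67 UMIs in DEX-2 and 8 to 13 in the other litters. Tpsg1, a membrane-bound tryptase, differed by 0.51 ± 0.20 and Ctsl, a lysosomal cathepsin, by -0.97 ± 0.34. Csf2rb, the shared beta chain of the IL-3, IL-5 and GM-CSF receptors, was 419 and 245 CPM in the DEX litters and 184 and 151 CPM in the PBS litters, a difference of 1.01 ± 0.30 that did not pass either (edgeR adjusted p = 0.977). The litters overlapped in Mrgprb2, Mrgprx2, Mcpt4, Cpa3, Tpsb2 and Kit. Mrgprb2 differed by 0.02 ± 0.19 and Mrgprx2 by 0.18 ± 0.29 on the log2 scale (SE), at edgeR adjusted p of 0.989 and 0.977. Mcpt4 differed by 0.18 ± 0.21, Cpa3 by -0.09 ± 0.11, Tpsb2 by -0.08 ± 0.10 and Kit by -0.03 ± 0.16. Fcer1a, at 0.02 ± 0.37, had the widest error of these latter genes. Cma1, which the rule used, was 35689 and 32475 CPM in the DEX litters and 36758 and 35858 CPM in the PBS litters, and Hdc 13147, 10897, 11215 and 9240 CPM.

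Prss34, the protease shared with basophils, was 666 and 466 CPM in the DEX litters, against 1383 and 1265 CPM in the PBS litters, so both DEX litters lay below both PBS litters. The log2 difference was -1.20 ± 0.21 (SE) at an edgeR adjusted p of 0.922, so it did not pass. Its UMIs came from 17 of 39, 20 of 52, 22 of 44 and 29 of 50 members, with at most 115 in a cell. In the other mast cells the difference was -0.21, and the difference between the 2 sets was -0.98 ± 0.17 with an edgeR adjusted p of 0.488.

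Csf2, which encodes GM-CSF, was 275 and 102 CPM in the DEX litters, against 10.5 and 8.49 CPM in the PBS litters. The log2 difference of 4.30 ± 0.64 had an edgeR adjusted p of 0.922. Few cells carried it: 6 and 6 members in the DEX litters and 4 and 3 in the PBS litters, and 57 of the 98 UMIs in DEX-1 and 38 of the 48 in DEX-2 came from 1 cell each. Ccl7, a monocyte chemokine, was 115, 38.3, 0 and 4.25 CPM in the same order and was found in 3, 2, 0 and 1 members. Il13, a type 2 cytokine, lay the other way, at 155 and 123 CPM in the DEX litters and 410 and 248 CPM in the PBS litters, with a log2 difference of -1.22 ± 0.29 and an edgeR adjusted p of 0.977. Over the 15 tested genes of the list, 7 were above 0 and 8 below, the median was -0.05, and 2 higher and 2 lower had an unadjusted p under 0.05, beside 4.32% of all genes tested.

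Of the glucocorticoid response list, 24 genes were tested, 11 above 0 and 13 below, with a median log2 difference of -0.08, beside -0.00047 over all tested genes. At an unadjusted p under 0.05, 3 were higher and 1 lower in DEX, beside 4.32% of all genes. Without overlap of the litters 5 lay above and 5 below, beside 15.1% and 18.9% of all genes, and 0 passed the adjustment. Nr3c1, the glucocorticoid receptor, was 250 and 240 CPM in the DEX litters and 99.9 and 136 CPM in the PBS litters, a log2 difference of 1.07 ± 0.23 (SE) with an unadjusted p of 0.0019 and an edgeR adjusted p of 0.922. Txnip, which binds thioredoxin and is often induced by glucocorticoids, was 399 and 419 CPM in DEX and 244 and 210 CPM in PBS litters, a difference of 0.88 ± 0.18 with the same adjusted p. The DEX litters were the higher ones in both. Gadd45a, a stress response gene, was lower in both DEX litters, with a log2 difference of -0.67 ± 0.18. Of the common targets, Tsc22d3 was 149 and 147 CPM in DEX against 166 and 172 CPM in PBS litters and Fkbp5 was 28.1, 21.3, 34.2 and 21.2 CPM, with differences of -0.17 ± 0.20 and -0.14 ± 0.44. Both differences were smaller than their SE, although the litters did not overlap in Tsc22d3.

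**Figure D5:**
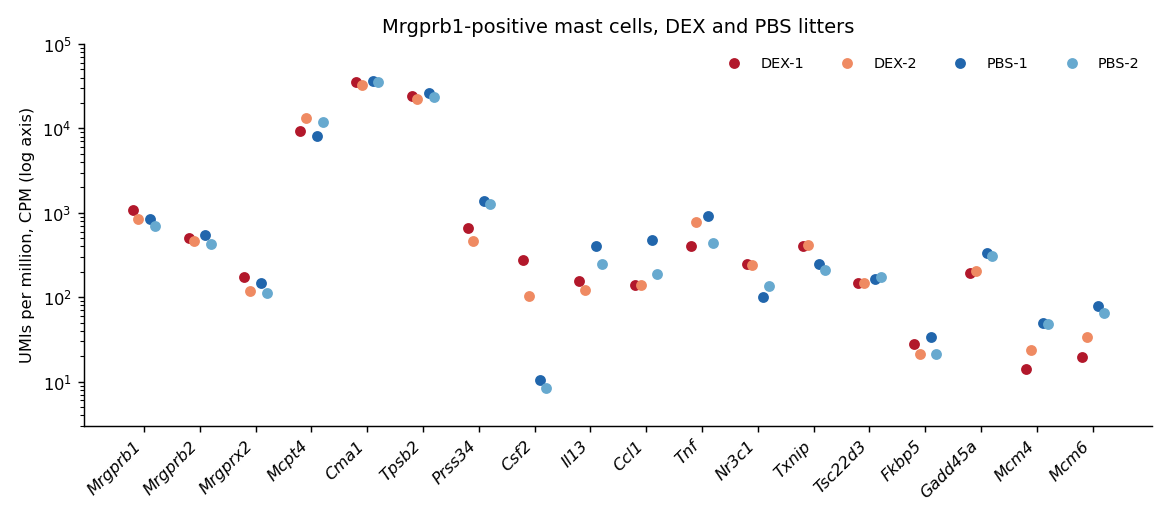
CPM on a log axis of 18 genes in summed Mrgprb1-positive mast cells, 1 point per litter, DEX to the left and PBS to the right of each gene. The points of Mrgprb2, Mrgprx2, Mcpt4 and Tpsb2 overlap between groups, the DEX points of Prss34 and Il13 lie below and those of Csf2, Nr3c1 and Txnip above the PBS points, and none of them passed by edgeR.

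Genes of the cell cycle did not pass the test in DEX against PBS litters. Both DEX litters lay below both PBS litters for 10 of the 18 cell cycle genes tested, against 18.9% of all genes tested, and above them for 0, against 15.1%; the median log2 difference was -0.75. Mcm6, a subunit of the replicative helicase, was 19.7 and 34.0 CPM in DEX and 78.9 and 65.8 CPM in PBS litters, a difference of -1.36 ± 0.35 with an edgeR adjusted p of 0.977. Mcm4, of the same complex, was 14.1, 23.4, 49.9 and 48.8 CPM, and E2f1, a factor of S phase entry, was 16.9, 14.9, 36.8 and 38.2 CPM. These are 7 to 31 UMIs of Mcm6 per litter, in 6, 11, 8 and 15 members. Of the 18 genes, 5 were above 0 and 13 below. Among the 5, Birc5 was 8.43, 48.9, 5.26 and 25.5 CPM and Ccnb2 0, 40.4, 26.3 and 6.37 CPM. By the count above DEX-1 held no cycling member, and DEX-2 had the highest cycling share, at 10.3%. In the other mast cells Mcm6 and Mcm4 differed by -0.02 and 0.07.

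In other lists the values lay on both sides of 0. For amine and heparin genes 12 of 16 were above 0 and 4 below, and for IgE receptor signalling 16 and 4 of 20. For immediate early genes they were 10 and 14 of 24. The medians of these lists were 0.09, 0.12 and -0.03. In them 1, 1 and 3 genes had an unadjusted p under 0.05, beside 4.32% of all genes tested. Of the 22 lineage factors 16 were below 0, with a median of -0.19, and Gata1, Id2 and Bhlhe40 had an unadjusted p under 0.05 in that direction, beside 113 of all 5143 genes. Of these factors 9 were below and 2 above without overlap of the litters, beside 18.9% and 15.1% of all genes, and 0 passed the adjustment. Gata1, an erythroid and mast cell factor, was 50.6 and 68.1 CPM in DEX and 124 and 102 CPM in PBS litters. All 8 epithelial markers tested were above 0 with a median of 1.42 and 0 of them at an unadjusted p under 0.05, and the Sftpc-rich members are in these sums. Without those members the summed epithelial markers were 272 and 357 CPM in the DEX litters and 628 and 274 CPM in the PBS litters.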

How the data were processed

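The authors deposited unnormalised UMI counts of genes and 4 hashtags for each barcode, made with Cell Ranger 7 (multi) on mm10, per the labels and the submitters' processing notes. Hashtags were matched to litters by number. Depth is given with the members. UMIs of members, and of mast cells with no Mrgprb1 UMI, were summed per litter, since cells are not replicates. The sums were tested with edgeR 4.0.16 (TMM, filterByExpr, two-sided, Benjamini-Hochberg under 0.05), after a check on simulated counts. Those counts gave every gene the same extra spread between litters, so the check does not cover genes whose UMIs came mostly from a single cell. The SE is the log2 difference divided by the square root of F. DESeq2 1.42.0, limma 3.58.1, other scalings, filters, cell rules and left-out litters were alternatives. Shares were tested by exact permutation over litters (scipy 1.17.1). Wilson intervals and limits at 0 (3 counts) cover counting error only. Named genes were the 10 called genes with the largest rise and fall for DEX, of which there were none, the 12 with the largest mean ratio each way in the description, and any gene of the lists; Slc29a1, H19, Igf2 and the markers of single cells were named after their values were seen. Members and lists were chosen with earlier results of these data known. Whether p-values over litters hold for other mothers rests on 2 per group. Gene positions are from GENCODE M21 (GRCm38).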

Additional observations from a re-analysis of the deposited data

How the results depend on the processing

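In members, DEX against PBS gave 0 calls by edgeR, against 2 by DESeq2, 2 with cells thinned to one depth (Ctsj and Prss34), 103 with no filter on low genes and 1 with the replicate number as a block (Csf2). In the other mast cells the 0 calls became 9 by DESeq2, 247 with no filter and 1 with mast cells at Cma1 of 1 and Hdc of 2. The difference between the 2 sets, also 0, became 1 by DESeq2, 45 with no filter, 8 with a top hashtag at least 10 times the next, 1 at the looser mast cell rule, 3 with Mrgprb1 read after thinning, 5 with thinned cells and 2 without cycling cells. Leaving out 1 litter, with the lone litter assumed to vary like the other group, gave 0 to 17 calls in members (17 without DEX-2), 0 to 31 in the other mast cells (31 without DEX-2) and 1 to 23 for the difference (23 without PBS-1). The cause of these changes was not tested. Same-numbered litters did not deviate together (correlation -0.0456 in members), so the block pairs nothing but a number. The cycling difference turned to 0.863 points without the 4 Sftpc-rich members, an alternative chosen after seeing the data, and ran from -5.56 to 4.70 points over left-out litters, 4.70 without DEX-1. The share difference stayed below 0, from -0.761 to -0.0986 points over left-out litters. It was -1.53 points with Mrgprb1 read after thinning and -1.20 points among mast cells with at least 5000 UMIs. The number of large and repeated differences between the mast cell sets ran from 255 to 396. Of 360 values of the 24 named genes under 15 alternatives, 339 moved by less than the spread between litters and 0 changed sign. Values of Mcpt4, whose spread was the narrowest, were among those that moved further. Depth limits genes under about 3 UMIs per litter.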
